A study of Arabidopsis thaliana with 12 samples.

Results

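The genes examined were the Arabidopsis thaliana loci that the deposited annotation describes as UDP-glucosyl transferase, UDP-glucosyltransferase or UDP-glycosyltransferase, in any case of letters. Of 33326 loci in the table, 131 carried such a description. A set of 9 glycosyltransferase loci of glucosinolate, flavonol, anthocyanin and drought or auxin metabolism was left out, of which 7 carried the description, so 124 members remained. For each locus the transcript of highest mean level over the WT libraries was used, and 98 of the 124 members had enough reads to be tested. The other 26 stayed under 1 TPM in every library, a transcript level scaled for length and library size, with a highest value of 0.596 TPM, and 5 of them were listed at 0 throughout.

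The study sequenced RNA of bou-2 plants and of WT (Col-0) plants at day and at night, with 3 libraries for each of the 4 groups and 12 libraries in all. In the bou-2 line a T-DNA sits in exon 2 of BOU, which encodes a mitochondrial carrier needed for glycine decarboxylase activity in photorespiration, and it is 1 insertion line in the Col-0 background. All plants, bou-2 and WT alike, were raised for 35 days in air with 3000 ppm CO2 and then spent 24 h in ambient air, so no group was kept in high CO2 up to harvest and no group was grown in ambient air throughout. The labels place the day harvest 2 h after and the night harvest 2 h before light onset, whereas the study's methods give other intervals and 1 label field calls the day libraries end of day. The labels speak of mature leaves and the methods of whole rosettes.

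BOU itself was at 80.2 to 80.7 TPM in bou-2 day libraries and 139 to 230.4 TPM in WT day libraries, and at 65.2 to 67.0 TPM in bou-2 night libraries and 153 to 176 TPM in WT night libraries. Estimated counts per library summed to between 15911356 and 33046562. Root markers summed to at most 0.614 TPM and flower markers to at most 1.97 TPM in every library, and 3 of 4 leaf markers were called lower in bou-2 at each time. Summed leaf marker level was 20677 to 23443 TPM in bou-2 and 30869 to 39675 TPM in WT at day, and 21961 to 23424 TPM in bou-2 and 33419 to 35184 TPM in WT at night. The senescence markers SAG12 and SAG13, neither of them called at either time, summed to 84.0 to 239.8 TPM in bou-2 and 17.2 to 254 TPM in WT at day, and to 114 to 235 TPM in bou-2 and 41.8 to 58.2 TPM in WT at night, without overlap at night. The part of these markers in the results was not tested, and in bulk tissue fewer cells of a type and less RNA per cell cannot be told apart. Replicate libraries of WT day differed most from each other, and WT day replicate 2 exceeded both other WT day libraries more than 2-fold for 14 of the 98 tested members, against 0 to 5 members for the other 11 libraries. WT day replicate 3 was under 0.5 times both other WT day libraries for 13 members, against 0 to 6 for the other 11 libraries. The labels call the libraries biological triplicates without saying which plants went into each, and the p-values therefore reflect how far these libraries vary.

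UDP-glycosyltransferases move a sugar, most often glucose, from a UDP-sugar to a small acceptor molecule. In plants the acceptors include salicylic acid, auxin, cytokinin, abscisic acid, sinapic acid, lignin precursors, flavonoids and foreign compounds, and the added sugar usually makes the acceptor more soluble, less active or ready for storage in the vacuole. The large plant family is numbered by sequence groups, so that UGT73B1 and UGT73B2 are close relatives. Several genes with this description are other enzymes that share the protein fold, among them granule-bound starch synthase, a galactolipid synthase and sterol glucosyltransferases.

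Transcripts of 21 of the 98 tested members were higher in bou-2 than in WT at day, where 14.8% of all 20458 genes tested were called higher, and 10 were lower, where 12.8% of all genes were. At night 18 members were higher, beside 14.8% of all genes, and 18 were lower, beside 12.2% of all genes. A call here is an adjusted p under 0.05 in the quasi-likelihood test of edgeR, adjusted by Benjamini-Hochberg over 26153 transcripts. Of the 98 members, 21.4% were called higher and 10.2% lower at day, and 18.4% were called in each direction at night. The median log2 fold change of the members was -0.04 at day and -0.00 at night, and that of all genes was -0.04 at day and 0.02 at night. The members' medians thus lay at those of all genes, and the calls came from members that moved in opposite directions.

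The day and the night comparison use different libraries, within 1 fit. The same direction was called at both times for 12 members that were higher in bou-2, beside 8.6% of all genes, and for 4 members that were lower, beside 6.53% of all genes. A further 8 members were called higher at day only, 6 lower at day only, 6 higher at night only and 13 lower at night only. GT72B1 was called higher at day and lower at night, and 48 tested members were called at neither time.

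**Figure D1:**
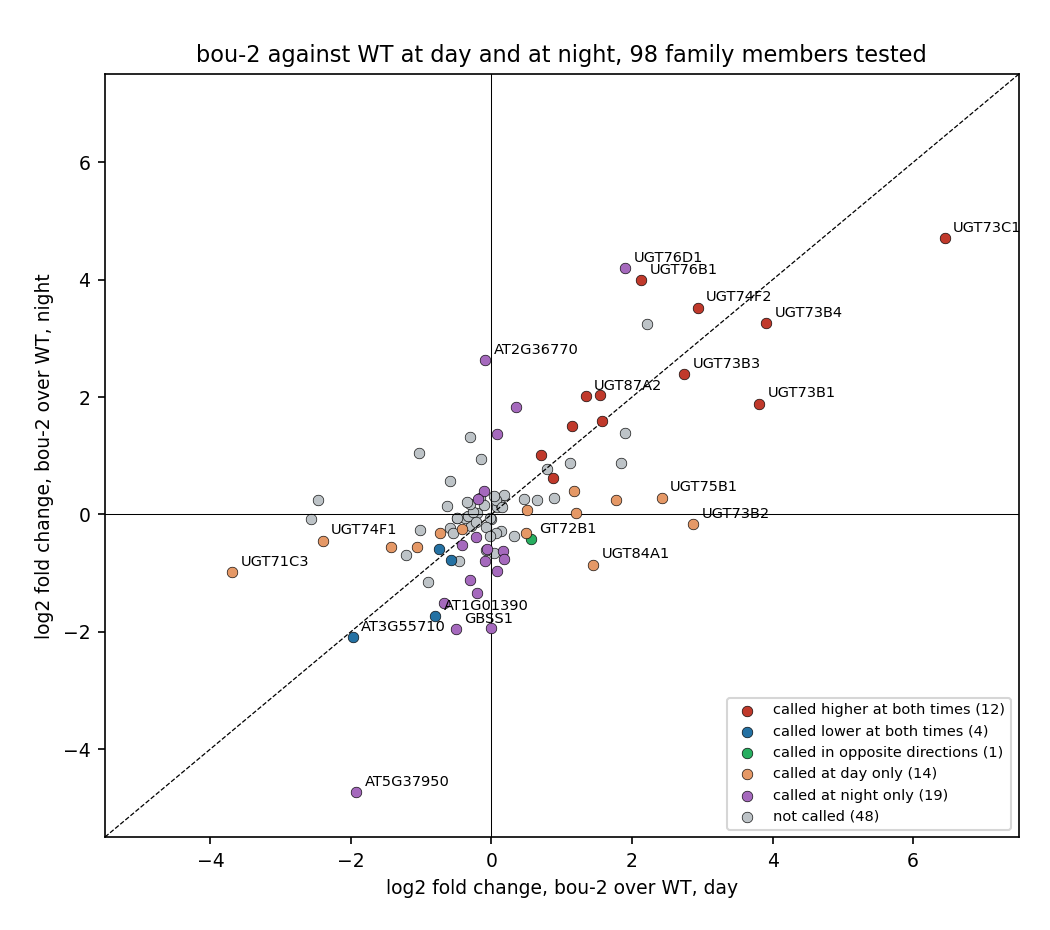
Each point is 1 of the 98 tested members. The x axis gives the log2 fold change of bou-2 over WT at day and the y axis the same at night, the dashed line marks equal values, and colours give the calls. The 12 members called higher at both times lie in the upper right, with UGT73C1 farthest out at 6.45 and 4.71, while UGT73B2 and UGT75B1 lie near 0 at night and above 2 at day.

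The largest increases at day were in the UGT73B and UGT73C groups, which are known for glycosylating flavonoids, pathogen-induced metabolites and foreign compounds. All 5 UGT73B members were higher in bou-2 at day and 4 of 5 at night, with a median log2 fold change of 2.87 at day and 1.89 at night. Of 5 tested UGT73C members, 2 were higher at each time and none was lower. Of all genes tested, 14.8% were called higher at each time, and 12.8% at day and 12.2% at night were called lower. Summed over UGT73B1 to UGT73B5, the level was 87.8 to 107.6 TPM in bou-2 and 9.63 to 17.4 TPM in WT at day, and 30.3 to 41.9 TPM in bou-2 and 12.8 to 15.6 TPM in WT at night.

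UGT73C1, an enzyme that can act on cytokinins and on trinitrotoluene, was at less than 0.2 TPM in every WT library. Its level was 12.5, 10.04 and 15.2 TPM in bou-2 day libraries, against 0.189, 0.114 and 0.0931 TPM in WT day libraries. At night it was 2.04, 2.15 and 1.77 TPM in bou-2 and 0.0379, 0 and 0.144 TPM in WT. Every bou-2 library was above every WT library at its time, and the day level in bou-2 was the higher of its own 2 times. The log2 fold change was 6.45 ± 0.44 (SE) at day, with adjusted p = 2.01e-05, and 4.71 ± 0.49 at night, with adjusted p = 0.000181. WT libraries held only 7, 4 and 4 estimated reads of it at day and 1, 0 and 5 at night. It therefore passed the count filter only through bou-2 libraries, and the size of its change is uncertain. Over 20 alternatives the log2 value was 3.57 to 6.74 at day and 1.49 to 6.31 at night, the 6.31 without WT night replicate 3. Both calls were kept under all of these alternatives.

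UGT73B4 and UGT73B5 are neighbours on chromosome 2 and their proteins are 90.9% identical. UGT73B4 stood at 15.1, 11.4 and 14.98 TPM in bou-2 day libraries and 0.587, 1.45 and 0.568 TPM in WT day libraries, and at 10.2, 4.71 and 4.71 TPM in bou-2 night libraries and 0.213, 0.355 and 1.27 TPM in WT night libraries. UGT73B5 stood at 8.74, 9.29 and 11.7 TPM in bou-2 day libraries and 2.75, 4.63 and 2.04 TPM in WT day libraries, and at 9.32, 5.48 and 4.98 TPM in bou-2 night libraries and 2.03, 1.43 and 2.64 TPM in WT night libraries. Neither gene had overlapping groups at either time. UGT73B4 rose by 3.91 ± 0.57 on the log2 scale at day and 3.25 ± 0.58 at night (adjusted p = 0.00097 and 0.00272), and the night value was 4.37 without WT night replicate 3, which held most of its WT night reads. UGT73B5 rose by 1.57 ± 0.33 and 1.59 ± 0.33 (adjusted p = 0.00633 and 0.00666). Of the 31-base words of UGT73B4, 22.2% also occur elsewhere, mostly in UGT73B5, and the annotated span of UGT73B5 (positions 6758430 to 6763501) runs over UGT73B4 (6761635 to 6763500), so the division of reads between this pair is uncertain.

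UGT73B3, UGT73B2 and UGT73B1 stand in a row on chromosome 4, between positions 16343057 and 16350203 of the TAIR10.1 assembly, all on the minus strand. UGT73B1 was at 18.8, 22.7 and 23.4 TPM in bou-2 day libraries and 0.867, 1.70 and 1.74 TPM in WT day libraries, and at 7.75, 7.51 and 5.73 TPM in bou-2 night libraries and 1.76, 2.36 and 1.18 TPM in WT night libraries. UGT73B3 was at 14.4, 16.8 and 17.7 TPM in bou-2 day libraries and 3.02, 3.31 and 0.721 TPM in WT day libraries, and at 6.37, 7.23 and 5.73 TPM in bou-2 night libraries and 1.38, 0.973 and 1.07 TPM in WT night libraries. Both outer genes of the row thus had bou-2 libraries wholly above WT libraries at both times. The log2 fold change of UGT73B1 was 3.81 ± 0.32 at day and 1.89 ± 0.31 at night (adjusted p = 6.96e-05 and 0.00189), and that of UGT73B3 was 2.74 ± 0.40 and 2.39 ± 0.41 (adjusted p = 0.000963 and 0.00242).

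UGT73B2, the middle gene, known for glucosylating flavonoids, had another pattern. It stood at 30.7, 34.1 and 39.9 TPM in bou-2 day libraries and 2.40, 6.30 and 4.64 TPM in WT day libraries. At night it was at 8.28, 7.95 and 9.19 TPM in bou-2 and 7.41, 9.59 and 9.43 TPM in WT, so the night groups overlapped. The log2 fold change was 2.87 ± 0.29 at day (adjusted p = 0.000147) and -0.16 ± 0.28 at night (adjusted p = 0.734). The difference of the 2 effects was 3.03 ± 0.40 on the log2 scale (adjusted p = 0.00843), whereas that difference was 0.35 ± 0.56 for UGT73B3 (adjusted p = 0.83) and 1.92 ± 0.43 for UGT73B1 (adjusted p = 0.0721). The protein of UGT73B2 is 84.8% identical to that of UGT73B3, and 10.8% of the 31-base words of UGT73B3 occur elsewhere, mostly in UGT73B2. Of the 31-base words of UGT73B1, 28.8% occur elsewhere, mostly in the neighbouring locus AT4G34139, and without strand information reads of overlapping loci cannot be told apart.

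In the UGT73C row on chromosome 2, UGT73C6, known for glucosylating flavonol glycosides, was at 16.0, 5.82 and 15.9 TPM in bou-2 and 3.20, 2.89 and 4.04 TPM in WT at day. At night its libraries overlapped, with 4.19, 4.45 and 3.80 TPM in bou-2 and 2.42, 4.03 and 3.27 TPM in WT. Its log2 fold change was 1.77 ± 0.32 at day (adjusted p = 0.0034) and 0.25 ± 0.32 at night (adjusted p = 0.642). Of its 31-base words, 17.6% occur elsewhere, mostly in the adjoining DOGT1 (AT2G36800). DOGT1 is not among the members and averaged 186 TPM in bou-2 and 17.0 TPM in WT at day, and the part of misassigned reads in the UGT73C6 level was not tested. AT2G36770 was called at night and not at day, with 0.409, 0.698 and 0.520 TPM in bou-2 and 1.12, 0.416 and 0.180 TPM in WT at day but 4.26, 1.96 and 1.96 TPM in bou-2 and 0.232, 0.0832 and 0.923 TPM in WT at night. Its night log2 fold change of 2.62 ± 0.81 passed the test narrowly (adjusted p = 0.0391) and was 2.14 to 4.06 with 1 library left out, the highest without WT night replicate 3. The difference between the day and the night effect was called for neither UGT73C6 (1.52 ± 0.46, adjusted p = 0.157) nor AT2G36770 (-2.71 ± 1.13, adjusted p = 0.292). Of the 31-base words of AT2G36770, 20.8% occur elsewhere, mostly in AT2G36780. UGT73C7, with 1.12 ± 0.41 at day and 0.87 ± 0.41 at night on the log2 scale, was called at neither time.

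**Figure D2:**
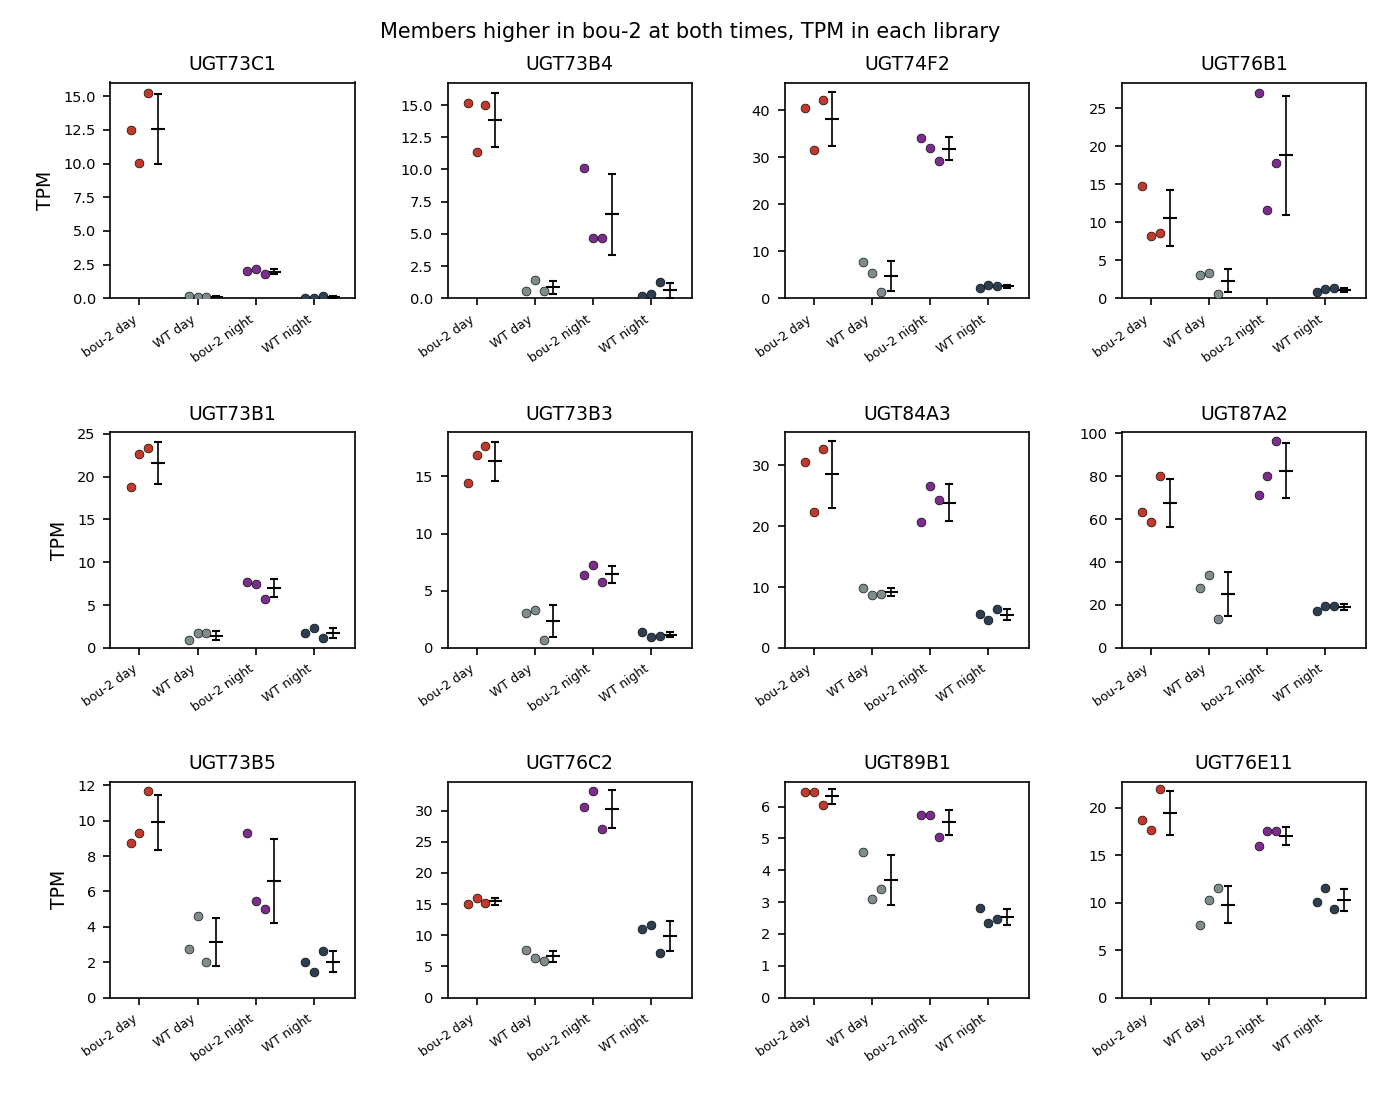
TPM in each library (points), with the mean and SD of the 3 libraries of a group (bars), for the 12 members called higher in bou-2 at both times. In each panel the bou-2 points lie above the WT points of the same time. UGT73C1, UGT73B1 and UGT73B3 are highest in bou-2 at day, and UGT76C2 and UGT76B1 are highest in bou-2 at night.

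The promoters of the UGT73B genes are shown because these members moved together, with that of UGT73B2 for its other timing, that of UGT76C2 as the remaining member of the 12 with the word searched, and that of UGT73C1 as the gene with the largest fold change. The bases are the 200 immediately before the annotated gene start, read 5′ to 3′ on the gene's strand from the RefSeq copy of TAIR10.1, and capitals mark TGACG or its reverse complement CGTCA, the core of the element bound by TGA-class bZIP factors.
UGT73B1 (chr4:16350204-16350403, minus strand): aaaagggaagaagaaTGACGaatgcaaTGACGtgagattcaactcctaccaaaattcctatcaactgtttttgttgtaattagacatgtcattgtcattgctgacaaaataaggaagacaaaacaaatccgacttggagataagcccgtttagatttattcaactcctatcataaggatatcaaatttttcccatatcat
UGT73B2 (chr4:16347435-16347634, minus strand): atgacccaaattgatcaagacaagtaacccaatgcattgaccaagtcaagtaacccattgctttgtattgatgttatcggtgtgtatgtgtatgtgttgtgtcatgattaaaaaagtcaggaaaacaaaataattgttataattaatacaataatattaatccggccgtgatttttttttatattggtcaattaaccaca
UGT73B3 (chr4:16344819-16345018, minus strand): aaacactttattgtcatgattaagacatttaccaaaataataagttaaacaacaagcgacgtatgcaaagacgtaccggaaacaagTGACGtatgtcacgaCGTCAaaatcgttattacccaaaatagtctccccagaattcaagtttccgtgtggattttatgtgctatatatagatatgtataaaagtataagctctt
UGT73B4 (chr2:6761435-6761634, plus strand): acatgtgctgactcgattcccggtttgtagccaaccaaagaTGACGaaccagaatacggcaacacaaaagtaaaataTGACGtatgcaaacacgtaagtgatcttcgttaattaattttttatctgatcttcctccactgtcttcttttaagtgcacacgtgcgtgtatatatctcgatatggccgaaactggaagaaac
UGT73B5 (chr2:6758230-6758429, plus strand): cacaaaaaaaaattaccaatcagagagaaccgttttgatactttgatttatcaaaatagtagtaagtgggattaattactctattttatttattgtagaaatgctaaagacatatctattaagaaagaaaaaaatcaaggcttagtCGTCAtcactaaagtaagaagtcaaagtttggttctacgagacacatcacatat
UGT76C2 (chr5:1765190-1765389, plus strand): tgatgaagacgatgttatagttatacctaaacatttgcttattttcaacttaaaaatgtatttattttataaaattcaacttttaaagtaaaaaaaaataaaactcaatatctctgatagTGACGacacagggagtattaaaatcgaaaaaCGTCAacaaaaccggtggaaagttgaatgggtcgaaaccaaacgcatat
UGT73C1 (chr2:15412065-15412264, minus strand): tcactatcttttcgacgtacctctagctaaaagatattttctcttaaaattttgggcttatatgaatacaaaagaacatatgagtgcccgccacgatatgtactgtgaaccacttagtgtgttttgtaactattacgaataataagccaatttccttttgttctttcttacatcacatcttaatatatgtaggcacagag

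In windows of 300 bases before the gene start, TGACG occurred on either strand in 5 of the 12 members that were higher at both times (41.7%), in 24 of the 98 tested members (24.5%) and in 21.3% of 27443 protein-coding genes. The 5 were UGT73B1, UGT73B3, UGT73B4, UGT73B5 and UGT76C2. The UGT73B4 window lies inside the annotated span of UGT73B5 (positions 6758430 to 6763501, same strand). By this annotation that window is also sequence of the neighbouring gene. The word began 185 and 173 bases before the start of UGT73B1, 114 and 99 bases before that of UGT73B3, 159 and 123 bases before that of UGT73B4 and 54 bases before that of UGT73B5. It was in neither the UGT73B2 nor the UGT73C1 window, and of the 9 members called higher at day but not at night only UGT84A1 held it, 3 times. The windows of UGT73B3 and UGT73B4, on different chromosomes, also shared GACGTATGCAAA, the longest word common to both, which on either strand was in 2 of the 27443 promoters. It was picked as the longest word shared by these 2 windows, after both had been read. Its presence in both was therefore fixed by the choice. How rare other words of this length are in promoters was not tested. A match is a description of letters and not a binding site.

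Other words were searched on both strands in the same windows. TTGAC, the core of the W-box, which overlaps TGACG where TTGACG occurs, was in 6 of the 12 and in 50.4% of all promoters. The G-box CACGTG was in 1 of the 12 and in 7.09% of all promoters, and the evening element AAAATATCT in 1 of the 12 and in 2.79%. For the mitochondrial dysfunction motif, bound by NAC factors, only a shortened form without its last bases was searched. That shortened form was in 1 of the 12 and in 9.62% of all promoters. The full motif was not searched, so its frequency is not given by these shares.

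Among 6 members that accept salicylate or benzoates, or are listed with them, bou-2 day libraries were called higher than WT for 2 and lower for 2, and bou-2 night libraries higher for 3 and lower for none. The day counts stand beside 14.8% (higher) and 12.8% (lower) of all genes, and the night counts beside 14.8% (higher) and 12.2% (lower). UGT74F2, which makes the salicylic acid glucose ester, was at 40.6, 31.6 and 42.2 TPM in bou-2 and 7.66, 5.41 and 1.26 TPM in WT at day. Its night values were 34.2, 32.1 and 29.2 TPM in bou-2 and 2.28, 2.84 and 2.59 TPM in WT. The bou-2 libraries were far above the WT libraries at both times, with log2 fold changes of 2.94 ± 0.42 at day and 3.52 ± 0.44 at night (adjusted p = 0.000915 and 0.000502).

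UGT76B1, which glucosylates isoleucic acid and acts in defence and senescence, was at 14.8, 8.21 and 8.58 TPM in bou-2 and 3.001, 3.32 and 0.596 TPM in WT at day. At night it was at 27.1, 11.6 and 17.8 TPM in bou-2 and 0.769, 1.21 and 1.29 TPM in WT. No WT library reached a bou-2 library, although the bou-2 libraries varied among themselves more than 2-fold at night. The log2 fold change was 2.13 ± 0.51 at day and 3.99 ± 0.56 at night (adjusted p = 0.0128 and 0.000863), and the day call was lost when only the 6 day libraries were fitted (adjusted p = 0.0557). UGT76D1, low in all groups and named here after its values were seen, was at 2.62, 1.65 and 2.05 TPM in bou-2 and 0.164, 0.123 and 0.0311 TPM in WT at night, and the log2 fold change was 4.19 ± 0.77 (adjusted p = 0.00324), which rests on 4, 3 and 1 WT reads.

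UGT74F1 and UGT71C3 passed the test as lower at day, and both calls rest on WT day replicate 2. UGT74F1, which acts on salicylic and benzoic acid, was at 0.741, 0.680 and 0.600 TPM in bou-2 and 0.737, 8.19 and 1.22 TPM in WT at day. UGT71C3, which acts on methyl salicylate, was at 1.84, 1.63 and 0.720 TPM in bou-2 and 1.27, 47.9 and 3.05 TPM in WT at day. Apart from that library the bou-2 and WT levels overlapped. Without it the log2 fold change of UGT74F1 was -0.65 instead of -2.40 (adjusted p = 0.349 instead of 0.0453), and that of UGT71C3 was -0.73 instead of -3.69 (adjusted p = 0.499 instead of 0.0489).

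Of the 3 tested members listed as cytokinin acceptors, 1 was higher at day and 2 at night, beside 14.8% of all genes at each time. UGT73C1, described above and higher at both times, was not in this list. UGT76C2, a cytokinin N-glucosyltransferase, was at 15.1, 16.0 and 15.2 TPM in bou-2 and 7.64, 6.28 and 5.84 TPM in WT at day, and at 30.6, 33.1 and 27.1 TPM in bou-2 and 11.0, 11.7 and 7.19 TPM in WT at night. Its groups were apart at both times, with log2 fold changes of 1.15 ± 0.18 and 1.498 ± 0.18 (adjusted p = 0.00148 and 0.000391). UGT76C1, its neighbour and also a cytokinin N-glucosyltransferase, averaged 10.6 TPM in bou-2 and 10.5 TPM in WT at day and 11.8 TPM in bou-2 and 12.7 TPM in WT at night, and was called at neither time. UGT85A1, linked to cytokinin O-glucosylation, was at 31.5, 20.6 and 20.05 TPM in bou-2 and 5.90, 7.95 and 5.05 TPM in WT at night, and the log2 fold change was 1.82 ± 0.34 (adjusted p = 0.00343), while its day libraries overlapped.

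UGT74D1, a glucosyltransferase of auxins, was among the 6 most abundant members. It was at 95.3, 114 and 126 TPM in bou-2 and 53.6, 38.9 and 47.6 TPM in WT at day, and at 42.9, 42.3 and 39.0 TPM in bou-2 and 29.5, 33.1 and 24.6 TPM in WT at night. The day log2 fold change was 1.17 ± 0.15 (adjusted p = 0.000582), and the night value of 0.40 ± 0.15 missed the threshold (adjusted p = 0.0873) although the libraries did not overlap. UGT84B1 and UGT84B2, listed with it, were too low to be tested, and AT3G55700 was called at neither time.

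The list of abscisic acid acceptors held 4 members, and members outside it were not checked for this acceptor. None of its 3 tested members was called higher in bou-2 at either time with all libraries, beside 14.8% of all genes at each time. Of these, AT3G21790 had a day log2 fold change of 0.47. Without WT day replicate 2 that value was 0.68, and AT3G21790 was called higher (adjusted p = 0.00392). UGT71C5, which makes the glucose ester of abscisic acid, was at 6.75, 5.94 and 6.42 TPM in bou-2 and 10.6, 17.5 and 9.41 TPM in WT at day, a log2 fold change of -1.06 ± 0.20 (adjusted p = 0.00433). Its night values were 12.7, 11.6 and 13.5 TPM in bou-2 and 18.3, 14.3 and 18.9 TPM in WT, and the value of -0.55 ± 0.20 missed the threshold (adjusted p = 0.0696). UGT71B6, the other well-known abscisic acid glucosyltransferase, averaged 2.60 TPM in bou-2 and 3.78 TPM in WT at day and was not called. Its day log2 fold change was -0.63, and 0.25 without WT day replicate 2.

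The 4 members of the UGT84A group, which form glucose esters of sinapic and other hydroxycinnamic acids, moved in different directions. UGT84A3 was at 30.5, 22.3 and 32.7 TPM in bou-2 and 9.88, 8.75 and 8.94 TPM in WT at day, and at 20.7, 26.7 and 24.3 TPM in bou-2 and 5.51, 4.52 and 6.33 TPM in WT at night. It had the smallest adjusted p of any member at night (3.36e-05), where its log2 fold change was 2.03 ± 0.14, against 1.54 ± 0.14 at day (adjusted p = 8.64e-05). UGT84A4, which lies next to it and whose protein is 74.9% identical, was at 2.02, 2.03 and 1.73 TPM in bou-2 and 2.07, 3.21 and 3.35 TPM in WT at day, and at 1.19, 1.18 and 1.19 TPM in bou-2 and 2.56, 3.58 and 3.32 TPM in WT at night. All of its bou-2 libraries were below the WT libraries of the same time, and the log2 fold change of -1.51 ± 0.26 passed the test at night (adjusted p = 0.00211) while that of -0.67 ± 0.25 at day did not (adjusted p = 0.0769).

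UGT84A1, on the other side of UGT84A3, was at 5.49, 4.83 and 4.93 TPM in bou-2 and 2.69, 1.01 and 1.61 TPM in WT at day. At night it was at 1.36, 0.979 and 0.863 TPM in bou-2 and 1.24, 2.18 and 1.97 TPM in WT, where the groups overlapped. UGT84A2, the main sinapate glucosyltransferase and on another chromosome, was at 88.8, 75.5 and 86.8 TPM in bou-2 and 85.2, 62.02 and 62.9 TPM in WT at day, which overlapped, and at 27.2, 28.1 and 31.2 TPM in bou-2 and 46.9, 40.5 and 49.3 TPM in WT at night. It was lower in bou-2 at night by a log2 fold change of -0.76 ± 0.11 (adjusted p = 0.000901). Neighbours in this row therefore differed in direction, and UGT84A1 and UGT84A3 are the only ones of the 4 called higher at day.

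**Figure D3:**
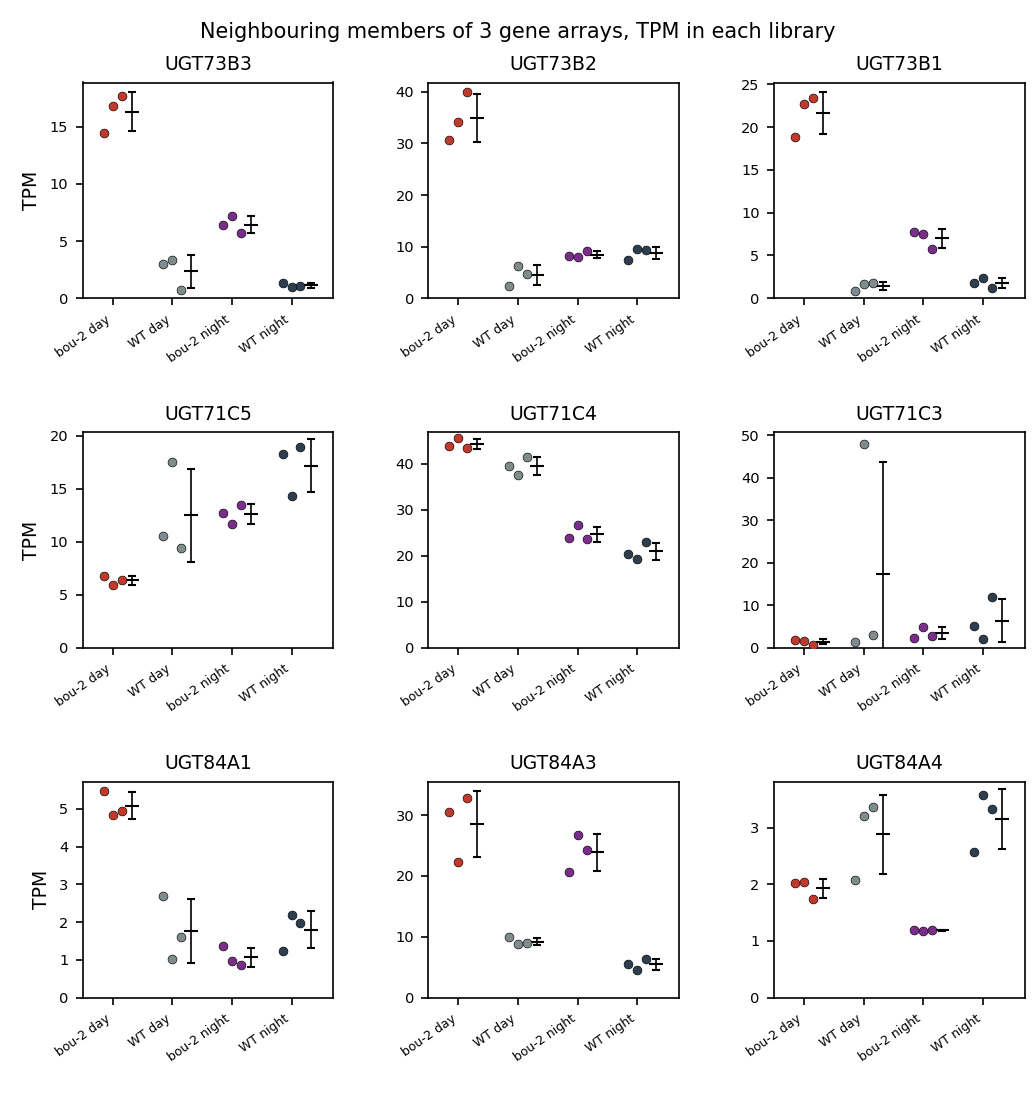
TPM in each library (points), with the mean and SD of the 3 libraries of a group (bars, cut off at 0), for 3 rows of neighbouring genes, each in chromosome order from left to right. UGT73B2 lacks the night difference of its neighbours, UGT84A3 and UGT84A4 differ in direction, and the 47.9 TPM of WT day replicate 2 stands alone for UGT71C3.

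In all, 9 rows of at least 3 members with at most 1 other gene between neighbours held 40 of the 124 members. The row of 5 UGT85A genes on chromosome 1 had none called at day and 2 called higher at night, UGT85A1 and UGT85A5. Of all genes, 27.6% were called in either direction at day and 14.8% were called higher at night. UGT85A5 was at 2.92, 2.82 and 2.53 TPM in bou-2 and 1.11, 0.444 and 1.38 TPM in WT at night, and the log2 fold change was 1.37 ± 0.33 (adjusted p = 0.0121). UGT85A2 of this row and UGT85A4 elsewhere, at 17.5 and 5.86 TPM in bou-2 and 13.4 and 9.46 TPM in WT at night, were not called. In the UGT71C row, UGT71C5 was lower at day and UGT71C4 differed by 0.08 ± 0.10 at day and 0.13 ± 0.10 at night on the log2 scale.

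Of the UGT76E group, 6 of 10 members were tested. UGT76E11 was at 18.7, 17.6 and 22 TPM in bou-2 and 7.61, 10.2 and 11.5 TPM in WT at day, and at 15.9, 17.6 and 17.6 TPM in bou-2 and 10.1, 11.5 and 9.26 TPM in WT at night. Its groups were apart at both times, with log2 fold changes of 0.88 ± 0.17 and 0.62 ± 0.17 (adjusted p = 0.00461 and 0.0246). AT5G38010 was lower at night (-1.11 ± 0.27, adjusted p = 0.0135), and UGT76E12 and AT5G38040 were called at neither time.

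Among members outside these groups, UGT87A2, which affects flowering time through FLC, rose at both times. It was at 63.1, 58.8 and 80.0 TPM in bou-2 and 27.99, 33.8 and 13.5 TPM in WT at day, and at 71.3, 80.1 and 96.4 TPM in bou-2 and 17.4, 19.7 and 19.7 TPM in WT at night. The groups did not overlap, and the log2 fold changes were 1.34 ± 0.25 and 2.02 ± 0.25 (adjusted p = 0.00346 and 0.000489). UGT89B1 was at 6.47, 6.46 and 6.04 TPM in bou-2 and 4.59, 3.09 and 3.41 TPM in WT at day, and at 5.74, 5.72 and 5.06 TPM in bou-2 and 2.81, 2.32 and 2.48 TPM in WT at night, which gave log2 fold changes of 0.70 ± 0.15 and 1.01 ± 0.16 (adjusted p = 0.00848 and 0.00135). AT2G30150, which adjoins UGT87A2 and is 76.1% identical to it in protein, was called higher at day only, by 0.51 ± 0.13 (adjusted p = 0.0166), and 2 more such members named after their values were seen were AT2G36970 with 1.20 ± 0.19 (adjusted p = 0.00169) and HYR1, which glucosylates hypostatin, with 0.49 ± 0.14 (adjusted p = 0.0253).

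The 4 members lower in bou-2 at both times were AT3G55710, AT1G01390, UGT71D1 and AT3G46650. AT3G55710, annotated only as a superfamily member, was at 3.11, 2.08 and 1.91 TPM in bou-2 and 9.20, 6.64 and 10.3 TPM in WT at day, and at 2.51, 2.11 and 1.47 TPM in bou-2 and 7.37, 8.90 and 7.89 TPM in WT at night. All bou-2 libraries were below all WT libraries, and the log2 fold changes were -1.97 ± 0.26 and -2.09 ± 0.26 (adjusted p = 0.000571 and 0.000471). Its neighbour AT3G55700, with a protein 79.6% identical, averaged 0.416 TPM in bou-2 and 0.477 TPM in WT at day and was called at neither time.

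AT1G01390 was at 3.90, 2.80 and 3.51 TPM in bou-2 and 4.37, 6.01 and 6.11 TPM in WT at day, and at 4.03, 3.47 and 4.02 TPM in bou-2 and 11.0, 9.43 and 15.3 TPM in WT at night. Its log2 fold change was -0.80 ± 0.21 at day (adjusted p = 0.0184) and -1.74 ± 0.21 at night (adjusted p = 0.000372). UGT71D1 averaged 4.21 ± 0.631 TPM in bou-2 and 6.60 ± 0.402 TPM in WT at day, and 6.24 ± 0.940 TPM in bou-2 and 8.73 ± 1.12 TPM in WT at night (SD, n = 3 each). AT3G46650 averaged 5.07 ± 0.254 TPM in bou-2 and 7.11 ± 0.668 TPM in WT at day, and 3.83 ± 0.695 TPM in bou-2 and 6.08 ± 0.735 TPM in WT at night. For the last 2 genes the groups were also apart at both times, though 48.2% of the 31-base words of AT3G46650 occur elsewhere, mostly in the neighbouring AT3G46640.

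All 3 tested members of the UGT79B group were lower in bou-2 at night, beside 12.2% of all genes. None was called at day, beside 27.6% of all genes. AT4G27560 was at 38.8, 40.7 and 34.8 TPM in bou-2 and 68.0, 40.01 and 76.4 TPM in WT at night, so its groups overlapped by 1 library, with -0.79 ± 0.23 on the log2 scale (adjusted p = 0.0329). AT4G09500 averaged 3.83 ± 0.331 TPM in bou-2 and 5.39 ± 0.944 TPM in WT at night (-0.60 ± 0.17, adjusted p = 0.0269), and AT2G22930, under 1 TPM in all libraries, differed by -1.94 ± 0.57 (adjusted p = 0.0327). AT4G27560 and the untested AT4G27570 are 94.7% identical in protein, and 29.1% of the 31-base words of AT4G27560 occur elsewhere.

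Further members were called at 1 time. At night AT5G17040 was at 3.96, 3.50 and 3.01 TPM in bou-2 and 7.30, 9.41 and 7.92 TPM in WT, a log2 fold change of -1.34 ± 0.21 (adjusted p = 0.00156). AT2G28080 was at 8.39, 8.68 and 8.01 TPM in bou-2 and 12.3, 11.4 and 12.1 TPM in WT at night, a log2 fold change of -0.62 ± 0.18 (adjusted p = 0.0294). At day AT2G18560 was at 4.11, 3.26 and 3.85 TPM in bou-2 and 5.46, 5.03 and 6.93 TPM in WT, a log2 fold change of -0.74 ± 0.18 (adjusted p = 0.0158). The libraries did not overlap in these 3 comparisons, and AT5G17040 and AT2G18560 are named after their values were seen.

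**Figure D4:**
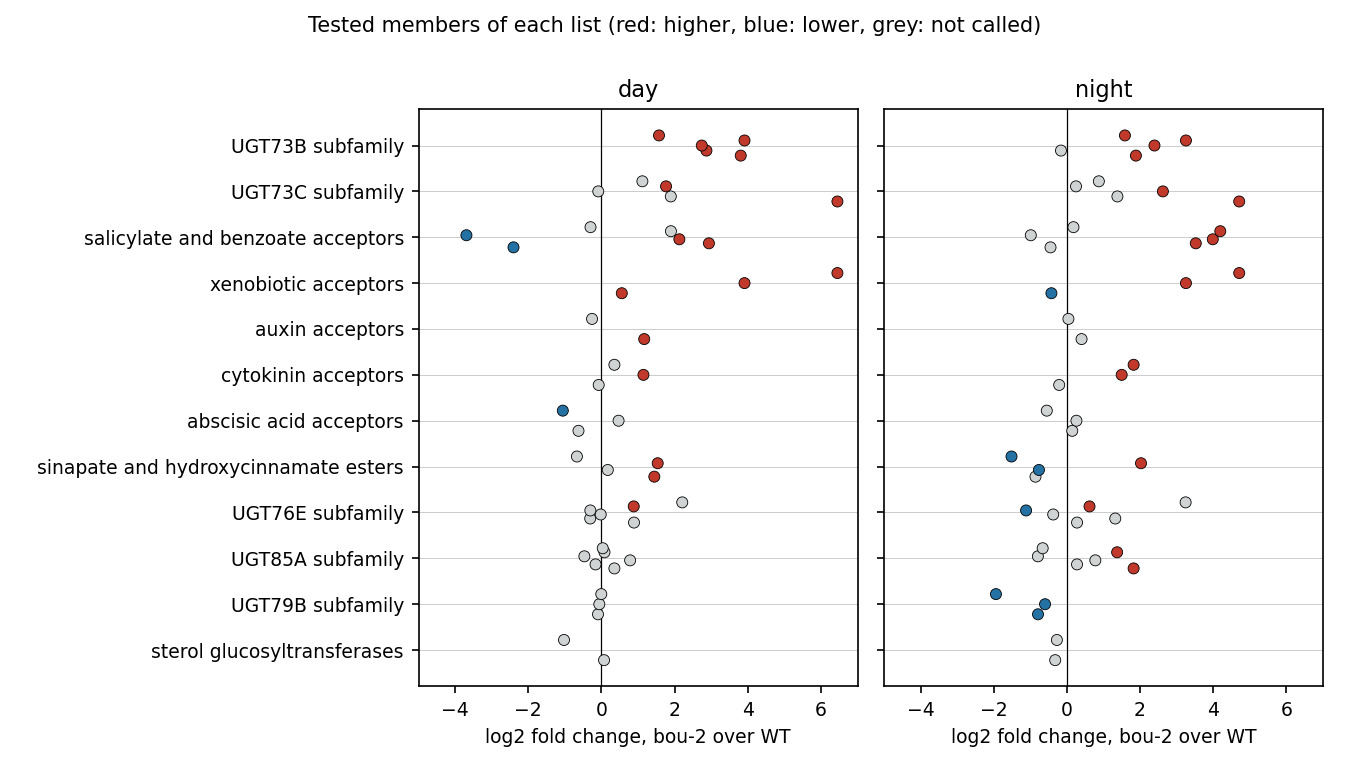
Each point is 1 tested member of the list named at left, placed by its log2 fold change of bou-2 over WT at day (left) and at night (right). Red points were called higher and blue points lower, and some members stand in more than 1 list. All 5 UGT73B points are red at day and 4 are red at night, the 3 UGT79B points are blue at night only, and the UGT84A group in the list of sinapate and hydroxycinnamate esters has points on both sides of 0.

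The proteins were searched for a signature of small-molecule glycosyltransferases. A pattern for the core of the PSPG box, the carboxyl-terminal signature of plant UDP-glycosyltransferases, was found in 102 members, of which 78 were tested. Of those 78, 30 were called in either direction at day (38.5%, beside 27.6% of all genes) and 32 at night (41.0%, beside 27% of all genes). Of the 20 tested members without the pattern, 1 was called at day and 4 at night (5.0% and 20%). The median protein length was 466.5 residues with the pattern and 496 residues without it.

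GBSS1, the granule-bound starch synthase that makes amylose, had no such pattern and was the most abundant member. It was at 449, 387 and 430.4 TPM in bou-2 and 662, 459 and 576 TPM in WT at day, and at 74.7, 80.8 and 72.9 TPM in bou-2 and 230.0, 215 and 382 TPM in WT at night. The bou-2 libraries were below the WT libraries at both times. The log2 fold change was -1.95 ± 0.19 at night (adjusted p = 0.000162), and that of -0.51 ± 0.19 at day missed the threshold (adjusted p = 0.0754), which it passed without WT day replicate 2 (-0.64, adjusted p = 0.035). With GBSS1 included, the summed level of the family was 1919 to 2148 TPM in bou-2 and 1638 to 1777 TPM in WT at day but 1292 to 1324 TPM in bou-2 and 1209 to 1555 TPM in WT at night. Without it the sums were 1532 to 1718 TPM in bou-2 and 1062 to 1256 TPM in WT at day, and 1219 to 1243 TPM in bou-2 and 994 to 1173 TPM in WT at night. Without GBSS1 the bou-2 sums lay above the WT sums at both times.

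The other members called at night without the pattern had smaller fold changes than GBSS1. DGD1, a galactolipid synthase of chloroplast membranes, was at 22.9, 23.1 and 24.1 TPM in bou-2 and 28.2, 27.2 and 38.9 TPM in WT at night (-0.53 ± 0.15, adjusted p = 0.0247). ATTPS6, a class II trehalose phosphate synthase, was at 22.9, 23.0 and 20.8 TPM in bou-2 and 16.0, 14.4 and 16.6 TPM in WT at night (0.40 ± 0.07, adjusted p = 0.0036). Both were named after their values were seen. The sterol glucosyltransferases SGT and UGT80B1 were called at neither time, with log2 fold changes of 0.07 ± 0.14 and -1.02 ± 0.45 at day and -0.32 ± 0.14 and -0.27 ± 0.43 at night.

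The 2 tested members of the list of lignin precursor acceptors, UGT72E1 and UGT72E2, showed no call at either time. Of all genes, 27.6% were called at day and 27% at night. UGT72E1 averaged 12.3 TPM in bou-2 and 17.4 TPM in WT at day and 24.0 TPM in bou-2 and 26.3 TPM in WT at night. Its day log2 fold change was -0.59, and 0.36 without WT day replicate 2. UGT72E2 averaged 1.25 TPM or less in every group, and UGT72E3 was too low to be tested.

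Day was then set against night within each genotype. In bou-2, 18 of the 98 members were higher at day, beside 7.68% of all genes, and 5 were lower, beside 7.69% of all genes. In WT, 8 members were higher at day, beside 5.58% of all genes, and 5 were lower, beside 3.88% of all genes. Among the called members, those with the largest day excess in bou-2 were UGT73C1 (2.79 ± 0.34, adjusted p = 0.000404), GBSS1 (2.61 ± 0.20, adjusted p = 1.68e-05), UGT84A1 (2.39 ± 0.34, adjusted p = 0.00109) and UGT73B2 (2.18 ± 0.28, adjusted p = 0.000568) on the log2 scale. Among the called members in WT they were GBSS1 (1.16 ± 0.19, adjusted p = 0.00339), GT72B1 (1.14 ± 0.11, adjusted p = 0.000107), UGT71C4 (1.04 ± 0.10, adjusted p = 0.000163) and UGT84A3 (0.87 ± 0.14, adjusted p = 0.00316).

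UGT71C4 was higher at day in both genotypes, with 43.8, 45.6 and 43.5 TPM at day and 23.9, 26.6 and 23.7 TPM at night in bou-2, and 39.5, 37.5 and 41.5 TPM at day and 20.5, 19.4 and 23.1 TPM at night in WT. The day excess was 0.98 ± 0.10 in bou-2 and 1.04 ± 0.10 in WT, a difference of -0.06 ± 0.15 (adjusted p = 0.906). UGT88A1, among the 6 most abundant members, was lower at day than at night in bou-2, with 54.0, 45.2 and 50.8 TPM at day and 91.3, 87.2 and 85.0 TPM at night (-0.68 ± 0.09, adjusted p = 0.000486), against 51.2, 55.1 and 54.9 TPM at day and 69.5, 66.8 and 67.8 TPM at night in WT (-0.21 ± 0.09, adjusted p = 0.17). Other members lower at day included UGT71C5 (-0.85 ± 0.20), AT4G15260 (-0.90 ± 0.26) and UGT76C2 (-0.83 ± 0.18) in bou-2, and AT1G01390 (-0.98 ± 0.20), AT2G28080 (-1.01 ± 0.18), AT2G16890 (-0.67 ± 0.14) and SGT (-0.51 ± 0.14) in WT. UGT71B1, the remaining gene of the 6 most abundant, was called in none of these comparisons.

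The bou-2 effect at day was tested against that at night in 1 model. The day effect minus the night effect on the log2 scale was called above 0 for 7 of the 98 members (7.14%), beside 0.538% of all genes, and below 0 for none, beside 0.645% of all genes. A value above 0 can come from a rise at day or from a decrease at night, and GBSS1, UGT84A2 and AT2G16890 were called lower at night and not called at day. At an unadjusted p under 0.05 the numbers were 21 above and 11 below 0. DESeq2 called 14 above and 2 below 0, and limma on log2(TPM + 1) called 9 above and none below. The shares of all genes under these other criteria were not taken. Their counts therefore cannot be set against all genes, and show only how the number of members varied with the criterion. The 7 were UGT73B2, GT72B1, UGT75B1, UGT84A2, GBSS1, AT2G16890 and UGT84A1, and only UGT73B2 kept its call under all 19 alternatives tried, with adjusted p of at most 0.0389. The calls of the other 6 were lost under 7 to 14 of the 19 alternatives, mostly with 1 library left out, where adjusted p rose to at most 0.143, and none changed direction.

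UGT75B1, a glucosyltransferase of the forming cell plate that is linked to callose synthesis, was at 53.5, 56.2 and 57.4 TPM in bou-2 and 6.67, 8.23 and 14.0 TPM in WT at day. Its night values were 16.4, 17.8 and 15.8 TPM in bou-2 and 11.6, 12.7 and 13.9 TPM in WT. The groups were apart at both times, but the log2 fold change was 2.42 ± 0.25 at day (adjusted p = 0.000161) and 0.29 ± 0.24 at night (adjusted p = 0.451), a difference of 2.14 ± 0.34 (adjusted p = 0.0212).

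GT72B1, also called UGT72B1, conjugates chlorinated phenols and anilines and was the second most abundant member. It was at 204, 213 and 247 TPM in bou-2 and 153, 143 and 129.5 TPM in WT at day, and at 58.0, 54.6 and 55.5 TPM in bou-2 and 69.8, 58.6 and 81.5 TPM in WT at night. It was thus above WT in every bou-2 day library and below WT in every bou-2 night library. The log2 fold change was 0.56 ± 0.11 at day (adjusted p = 0.00415) and -0.42 ± 0.11 at night (adjusted p = 0.016), and the difference was 0.98 ± 0.15 (adjusted p = 0.0184).

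Of the remaining genes, AT2G16890 was at 16.9, 13.0 and 14.99 TPM in bou-2 and 14.0, 11.5 and 14.1 TPM in WT at day, and at 12.9, 13.4 and 11.3 TPM in bou-2 and 24.6, 18.1 and 25.9 TPM in WT at night. Its groups overlapped at day and were apart at night, with a difference of the effects of 1.05 ± 0.20 (adjusted p = 0.0398). The difference was 2.302 ± 0.47 for UGT84A1 (adjusted p = 0.0499), 1.45 ± 0.27 for GBSS1 (adjusted p = 0.037) and 0.94 ± 0.15 for UGT84A2 (adjusted p = 0.0218).

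**Figure D5:**
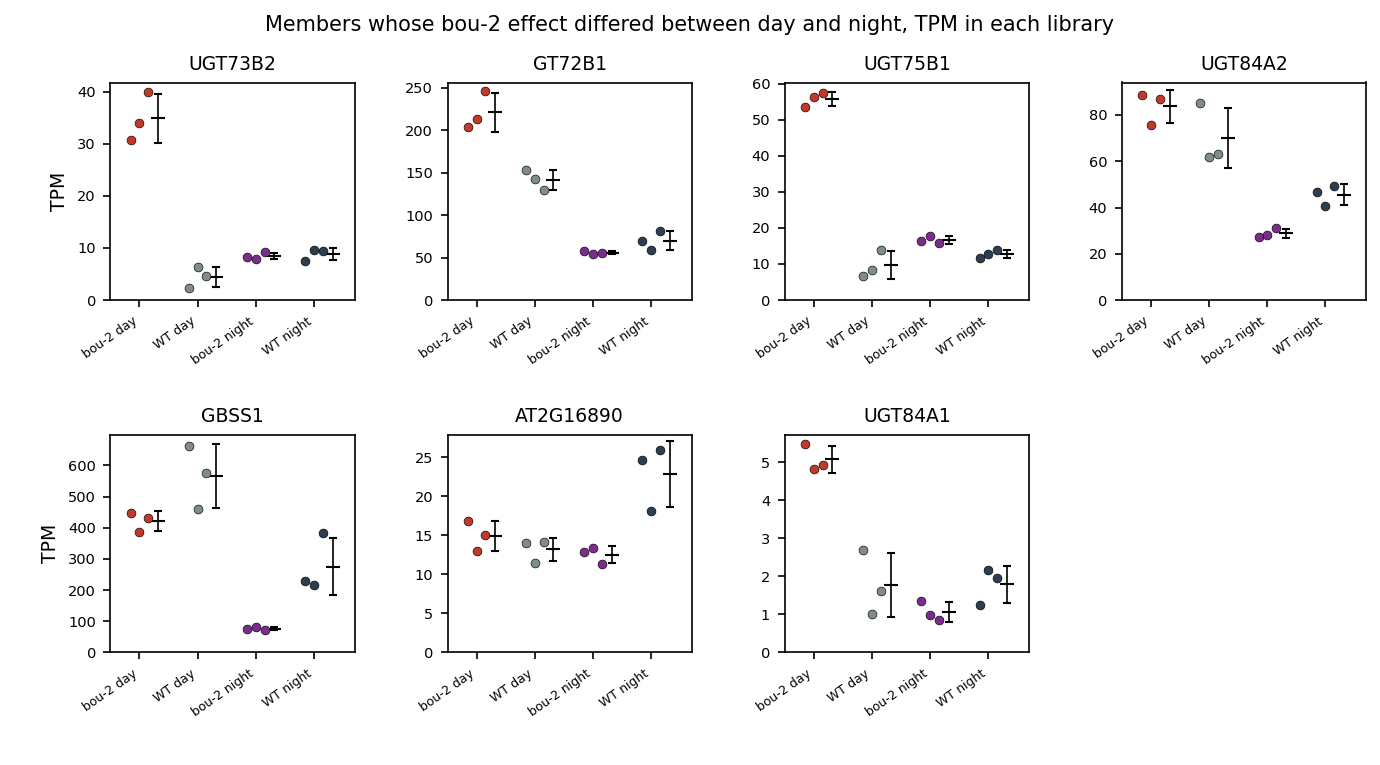
TPM in each library (points), with the mean and SD of the 3 libraries of a group (bars), for the 7 members whose bou-2 effect differed between day and night. UGT73B2 and UGT75B1 stand apart in bou-2 at day, GT72B1 is above WT at day and below it at night, and GBSS1, UGT84A2 and AT2G16890 are below WT at night.

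WT day replicate 3 held the lowest WT day value of UGT74F2, UGT76B1, UGT73B3 and UGT87A2. Without it their day log2 fold changes were 2.50, 1.69, 2.33 and 1.08, and 21 members were called higher at day. WT day replicate 2 also bears on the day comparison. Without it 23 members were called higher at day, of which 20 were among the 21 called with it, and 7 were called lower, of which 5 were among the 10 called with it. HYR1 was lost from the higher members and AT2G36780, UGT71C2 and AT3G21790 were gained. UGT74F1, UGT71C3, AT2G29710, AT3G15940 and AT3G46650 were lost from the lower members, and GBSS1 and AT5G65685 were gained. The number of lower calls at day also fell to 3 when either bou-2 day replicate 2 or bou-2 day replicate 3 was left out.

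Genes that supply the UDP-sugars were examined beside the family. Of 23 tested, bou-2 was called higher for 3 and lower for 5 at day, and higher for 3 and lower for 6 at night, with medians of -0.21 and -0.12 on the log2 scale. The shares of all genes were 14.8% (higher) and 12.8% (lower) in the day comparison, and 14.8% (higher) and 12.2% (lower) in the night comparison. RHM1, a UDP-rhamnose synthase, averaged 92.4 TPM in bou-2 and 174 TPM in WT at night (-1.02 ± 0.12, adjusted p = 0.000371). SUS1, a sucrose synthase, averaged 96.2 TPM in bou-2 and 40.4 TPM in WT at night (1.15 ± 0.24, adjusted p = 0.00702). UGP1, a UDP-glucose pyrophosphorylase, averaged 116 TPM in bou-2 and 143 TPM in WT at night (-0.40 ± 0.12, adjusted p = 0.0401), and NRS/ER, which completes UDP-rhamnose synthesis, averaged 84.3 TPM in bou-2 and 103 TPM in WT (-0.39 ± 0.11, adjusted p = 0.0307).

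Of 5 tested genes that use glucose esters or remove glucose, none was higher and 1 was lower at day, and 1 was higher and 1 lower at night. For comparison, higher calls made up 14.8% of all genes in both the day and the night comparison. Lower calls made up 12.8% of all genes in the day comparison and 12.2% in the night comparison. BGLU18, the β-glucosidase that releases abscisic acid from its glucose ester, averaged 217 TPM in bou-2 and 815 TPM in WT at day and 306 TPM in bou-2 and 883 TPM in WT at night. Its log2 fold change was -1.97 ± 0.51 at day (adjusted p = 0.0187) and -1.62 ± 0.51 at night (adjusted p = 0.0406). The day call was lost under 3 of 20 alternatives, among them without WT day replicate 2. The night call was lost under 9 of 20, among them limma and the replicate block. BGLU45, linked to monolignol glucosides, averaged 2.08 TPM in bou-2 and 0.415 TPM in WT at night (2.23 ± 0.56, adjusted p = 0.016), and the log2 value was 2.98 without WT night replicate 1.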

How the data were processed

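RNA of 12 libraries was sequenced on an unstranded kit, so overlapping and antisense genes cannot be told apart. The authors used CASAVA, kallisto 0.43.0 and sleuth 0.28.1, per the submitters' processing notes. The deposited table holds, for each transcript and library, estimated counts as kallisto gave them and TPM values, scaled for transcript length and library size in the authors' kallisto run. Its columns of the authors' fold changes, q-values, and TPM means and SDs were not used, and 23 repeated lines of 41415 were dropped, leaving 41392 transcripts.

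Estimated counts were rounded and fitted over all 12 libraries in 1 model with 1 mean per group, using edgeR 4.0.16 in R 4.3.3 (TMM scaling, filterByExpr with a minimum count of 10, a minimum total of 15 and a proportion of 0.7, quasi-likelihood test). The Benjamini-Hochberg adjustment of p-values ran over 26153 transcripts, and a call is an adjusted p under 0.05. The common biological coefficient of variation was 28.4%. Log2 fold changes are given with a standard error (SE) derived from the quasi-likelihood test. It is the size of the change divided by the square root of its F statistic, and was not estimated separately. For members with few reads it can understate the uncertainty. TPM values are given as means with SD over 3 libraries. The alternatives were DESeq2 1.42.0 (its size factors, and its Wald test), limma 3.58.1 on log2(TPM + 1) and log2(TPM + 0.1), no count filter, counts summed per gene, only the 6 libraries compared, the replicate number as a block, and each library left out. Simulated data gave every transcript the same spread and changed few of the 26153 transcripts, all of them with higher counts. There the day comparison recovered 11.9% of 67 2-fold and 95.5% of 66 4-fold changes. The difference between times recovered 0% of 2-fold and 62.1% of 4-fold changes. These shares do not give the recovery in the data, where far more genes were called, or for members with few reads.

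The members, role lists and rules were chosen with earlier results of these data known. Named genes were members called at both times with libraries that did not overlap, by size of change, the 6 most abundant, all members called in the difference between times, up to 4 per direction of day against night in each genotype, and up to 4 of each list. Outside the family, up to 4 called genes of each of 2 lists were named. UGT76D1, AT2G36970, AT2G30150, HYR1, DGD1, ATTPS6, AT5G17040 and AT2G18560, and neighbours, untested list members and genes gained or lost without WT day replicate 2, were named after values were seen. Promoters and proteins came from RefSeq's copy of TAIR10.1, in which all 124 members had a gene model. A 31-base word was counted as shared when it occurred in a transcript of another locus.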

Additional observations from a re-analysis of the deposited data

Results flagged for a closer look

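For 7 members the bou-2 effect at day differed from that at night by a test of the difference itself, the interaction term in edgeR, adjusted by Benjamini-Hochberg. The bou-2 effect at day minus that at night was 3.03 on the log2 scale for UGT73B2, 2.302 for UGT84A1, 2.14 for UGT75B1, 1.45 for GBSS1, 1.05 for AT2G16890, 0.98 for GT72B1 and 0.94 for UGT84A2. For GT72B1 the effect at day was above 0 and that at night below 0, and both passed the test. GBSS1, UGT84A2 and AT2G16890 were called lower at night and not called at day.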

How the results depend on the processing

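Of 110 calls of named genes, 66 held under all alternatives, 44 were lost under at least 1 and 0 reversed. With 1 library left out, the members called higher in bou-2 numbered 19 to 24 at day (21 with all libraries) and 15 to 21 at night (18), and those lower 3 to 15 at day (10) and 10 to 21 at night (18). Those higher at day than at night numbered 15 to 21 in bou-2 (18) and 6 to 14 in WT (8), and those lower 2 to 8 in bou-2 (5) and 2 to 9 in WT (5). The bou-2 log2 fold change at day minus that at night was called above 0 for 1 to 12 (7) and below 0 for 0 to 5 (0), the 5 without WT day replicate 3. The cause was not tested.

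For members lower in bou-2 at day, limma gave 5 with a pseudocount of 1 and 6 with 0.1, and the 6 libraries alone gave 2. For day against night in WT, higher calls numbered 15 with DESeq2, 13 with counts summed per gene and 4 with 6 libraries, and lower calls 8 with limma at a pseudocount of 1, 3 without a filter and 1 with 6 libraries. In bou-2, lower calls numbered 11 and 9 with limma at pseudocounts of 1 and 0.1, 3 without a filter and 9 with 6 libraries. In the difference, calls above 0 numbered 14 with DESeq2 and 4 with limma at a pseudocount of 0.1, and calls below 0 numbered 2 with DESeq2 and 1 with counts summed per gene. Shares of all genes were not taken under the alternatives.

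Libraries of a shared replicate number showed little shared deviation from their group means, with correlations from -0.09 to 0.07. With 3 libraries a group this check cannot decide whether such libraries were handled together. With the replicate block, members higher and lower numbered 21 and 7 at day, 16 and 16 at night, 17 and 3 for day against night in bou-2, 8 and 3 in WT, and 3 and 0 in the difference.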

Other observations

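UGT76E12 had large but unsettled values. Its mean level was 3.43 TPM in bou-2 and 0.719 TPM in WT at day and 2.71 TPM in bou-2 and 0.274 TPM in WT at night, with log2 fold changes of 2.21 ± 0.99 and 3.25 ± 1.09 (SE, 3 libraries a group) that missed the threshold in edgeR's test, adjusted by Benjamini-Hochberg (adjusted p = 0.137 and 0.0544). AT5G37950 was called lower in bou-2 at night (adjusted p = 0.0437 in the same test) from 1.85, 1.73 and 2.23 TPM in WT libraries, while 2 of the 3 bou-2 night libraries held less than 1 estimated read.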
